A study of Mus musculus with 5 samples.

Results

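Desmosomes are spot-like junctions that fasten epithelial cells to one another and anchor the keratin filaments inside them. Desmogleins (Dsg) and desmocollins (Dsc), the desmosomal cadherins, bind across the gap between cells. Their cytoplasmic tails hold the armadillo proteins plakoglobin (Jup) and the plakophilins (Pkp), and these bind desmoplakin (Dsp), the plakin that reaches the keratins. Simple epithelia, such as the luminal layer of the mammary gland, rely mainly on Dsg2 and Dsc2, whereas stratified epithelia such as the epidermis add further cadherins, among them Dsg3.

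The genes described here were 9 desmosome genes chosen by name, namely the cadherin genes Dsg2, Dsg3, Dsc2 and Dsc3 and the plaque genes Jup, Pkp1, Pkp2, Pkp3 and Dsp. The genes were found by their symbols in GENCODE M21. Of these, 8 were among the 12934 genes with counts and all 8 were among the 12483 genes tested, while Dsc3 was not analysed here. RNA was measured in EpH4 cells, a mouse mammary epithelial cell line, with 3 sgControl and 2 sgMef2d libraries. All 5 libraries came from cells that had received Cas9 by lentivirus with blasticidin selection, and then an sgRNA virus, control or against Mef2d, with puromycin selection. The methods call the selected cells stable clones. The labels do not say which sgRNA each sgMef2d library carried or whether the libraries came from separate cultures, so that the p-values measure only the spread between these libraries, which may be technical.

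The counts summed to between 13601145 and 20498563 per library, and 3 counts, taken as the limit of detection, corresponded to between 0.146 and 0.220 CPM (counts scaled to a common library total). The targeted gene, Mef2d, had 64.3, 76.9 and 71.5 CPM in the sgControl libraries and 64.2 and 65.8 CPM in the sgMef2d libraries, and its log2 fold change of -0.12 did not pass the threshold (adjusted p = 0.400, by the quasi-likelihood test of edgeR, adjusted after Benjamini and Hochberg). Leaving out sgControl replicate 1 put Mef2d at -0.19 with an adjusted p of 0.00550 by the same edgeR test, and it passed in no other of its 14 alternatives. The labels were therefore not checked by the mRNA level of the target. The sgControl replicate 1 library stood apart, with a chi-square per degree of freedom of 10.6 and 13.7 against the other sgControl libraries, as compared with 2.01 between those libraries and 11.0 to 13.1 between an sgControl and an sgMef2d library. Of 11 mammary epithelial markers, 10 were measured, and they summed to between 4349 and 4524 CPM in sgControl and between 4142 and 4306 CPM in sgMef2d, with none at 0. The one leukocyte marker of 5 that was measured, Cd68, stayed at or below 1.28 CPM, and the 4 endothelial markers were not analysed.

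In sgMef2d cells, 3 of the 8 desmosome genes rose and none fell. These were Dsg3, a cadherin of stratified epithelia, by 4.79 on the log2 scale, plakoglobin (Jup) by 0.35 and plakophilin 3 (Pkp3) by 0.27. Among all genes tested, 7.95% passed the same threshold, an adjusted p below 0.05 in edgeR's quasi-likelihood test, 3.67% with higher and 4.28% with lower counts in sgMef2d. Of the called members, Dsg3 entered the test only through the sgMef2d libraries, where it was high. With at least 1 CPM required in every library, 2 of 7 members passed, Jup and Pkp3, beside 873 of 11275 genes. The members had a median log2 fold change of 0.21, as against 0.0031 over all genes tested. The sgMef2d libraries lay outside the range of the sgControl libraries for 6 members, above it for Dsg3, Jup, Pkp1, Pkp3 and Dsp and below it for Pkp2, which compares with 41.1% of all genes in either direction, 20.6% higher and 20.5% lower. The libraries of Dsg2 and Dsc2 overlapped. The called count was unstable when single libraries were left out. It was 1, Dsg3 alone, without sgControl replicate 2, sgMef2d replicate 1 or sgMef2d replicate 2, when 4.84%, 1.88% and 1.83% of all genes tested passed. It was 6 without sgControl replicate 1 and 4 without sgControl replicate 3, when 29.4% and 6.51% of all genes passed. At an adjusted p below 0.01, 1 member passed beside 3.38% of all genes, below 0.1, 5 members beside 12.7%, and at an unadjusted p below 0.05, chosen after seeing the data, 6 members beside 23.2%. Beside these results, the summed level of 10 stratified keratinocyte markers was between 448 and 457 CPM in sgControl and between 1074 and 1123 CPM in sgMef2d, and its part in them was not tested. With RNA from whole cultures, more cells that express a gene and more RNA per cell cannot be told apart.

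**Figure D1:**
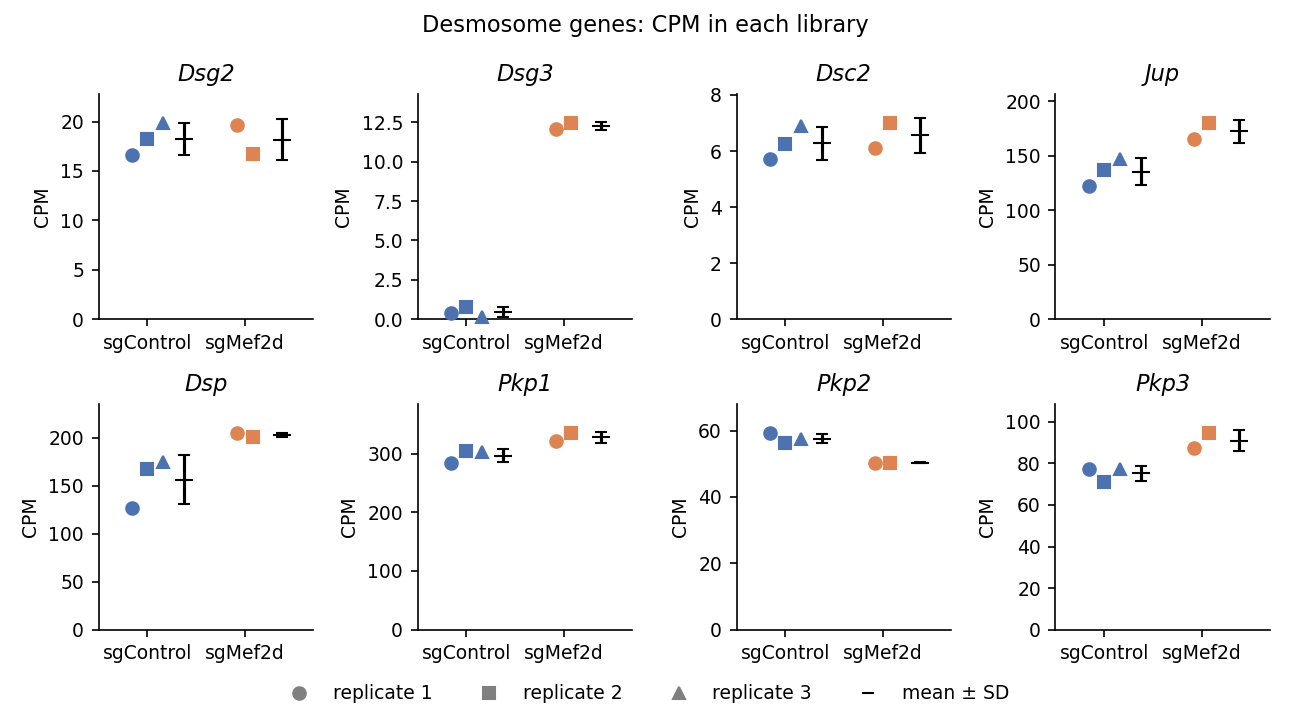
CPM (linear axes from 0) of the 8 desmosome genes in each library, with sgControl in blue and sgMef2d in orange, symbols for replicates and a bar for the mean ± SD (n = 3 and n = 2). Dsg3 stands between 0.147 and 0.780 CPM in sgControl and at 12.1 and 12.5 CPM in sgMef2d, Pkp2 is lower in both sgMef2d libraries, and Dsg2 and Dsc2 overlap between the groups.

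Among the cadherins, Dsg3 (ENSMUSG00000056632.8; chromosome 18, 20510274 to 20547459, plus strand, GRCm38) encodes desmoglein 3, an adhesion protein of basal layers of stratified epithelia and the target of autoantibodies in pemphigus vulgaris. It had 0.390, 0.780 and 0.147 CPM in sgControl replicates 1, 2 and 3, from 8, 11 and 2 reads counted, the last of which lies under the limit of 3 counts. In the sgMef2d libraries it had 12.1 and 12.5 CPM, from 205 and 185 reads. Both sgMef2d libraries were far above all sgControl libraries, which sat close to the limit of detection. Dsg3 entered the test only through the sgMef2d libraries, where it was high. The mean was 0.439 ± 0.320 CPM in sgControl (SD, n = 3) and 12.3 ± 0.278 CPM in sgMef2d (SD, n = 2), a ratio of 27.9. The log2 fold change was 4.79 with a standard error of 0.267 (adjusted p = 2.23e-06, edgeR's quasi-likelihood test). Dsg3 ranked 8 by p among all genes and 8 by fold change among those that were higher. Its call held in all 13 alternatives that gave it a value, with a log2 fold change of between 4.45 and 5.35.

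Dsg2 (ENSMUSG00000044393.15; chromosome 18, 20558074 to 20604521, plus strand), the desmoglein found in nearly all desmosome-bearing tissues, heart muscle included, had 16.6, 18.2 and 19.9 CPM in sgControl and 19.7 and 16.7 CPM in sgMef2d. The lowest and highest values of both groups were alike, with a mean of 18.2 ± 1.62 CPM in sgControl (SD, n = 3) and of 18.2 ± 2.09 CPM in sgMef2d (SD, n = 2). The log2 fold change was 0.0075 with a standard error of 0.113 (adjusted p = 0.979, edgeR's quasi-likelihood test). Dsc2 (ENSMUSG00000024331.11; chromosome 18, 20030633 to 20059554, minus strand), the desmocollin that accompanies Dsg2, had 5.705, 6.24 and 6.89 CPM in sgControl and 6.12 and 7.003 CPM in sgMef2d. These also overlapped, at a log2 fold change of 0.07 with a standard error of 0.154 (adjusted p = 0.826, edgeR's quasi-likelihood test). For both genes the direction depended on single libraries: Dsg2 was at -0.06 without sgControl replicate 1 and at -0.125 without sgMef2d replicate 1, and Dsc2 at -0.0061 without sgControl replicate 1 and at -0.0291 without sgMef2d replicate 2.

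The desmosomal cadherin genes lie together on chromosome 18, so the other genes around Dsg3 were read as well, a choice made after the values had been seen. Of 13 protein-coding genes that start within 500 kb of the start of Dsg3, 5 were tested and Dsg3 alone passed the threshold. Dsg2 starts 47.8 kb downstream of Dsg3 and Dsc2 450.7 kb upstream. Trappc8, a gene of vesicle transport, lay at a log2 fold change of -0.11 (adjusted p = 0.341, edgeR's quasi-likelihood test), and Rnf138, a ubiquitin ligase gene, at -0.16 (adjusted p = 0.237, same test).

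**Figure D2:**
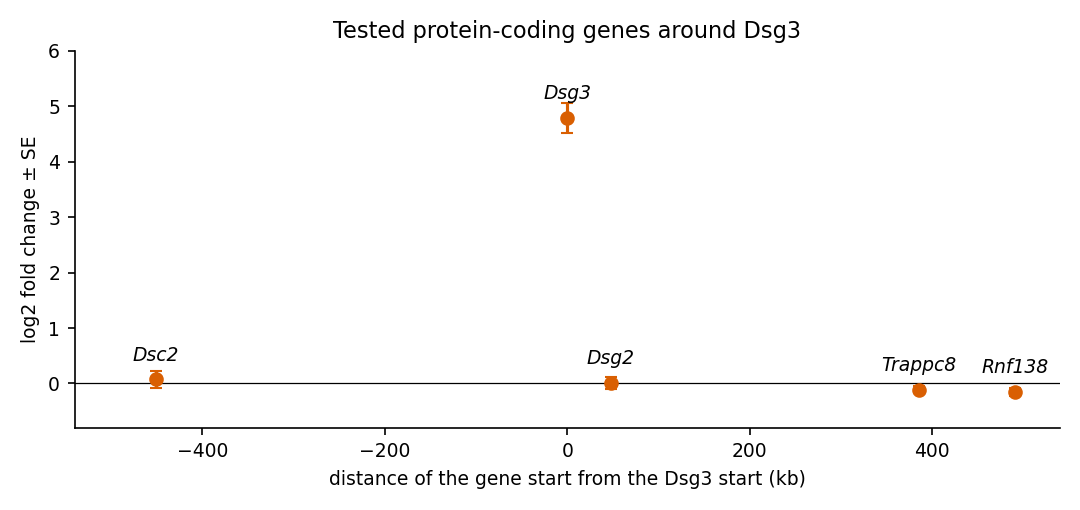
Log2 fold change (sgMef2d against sgControl, ± standard error) of the tested protein-coding genes against the distance of their start from that of Dsg3 in kilobases. Dsg3 is at 4.79, while the other 4 genes lie between -0.16 and 0.07.

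Levels were compared between genes after division by the length of the merged exons (CPM per kilobase). Dsg3 made up 2.70%, 4.83% and 0.867% of the desmoglein level, Dsg2 plus Dsg3, in the sgControl libraries, and 42.1% and 46.9% in the sgMef2d libraries. The mean share went from 2.80% ± 1.98 (SD, n = 3) to 44.5% ± 3.404 (SD, n = 2), a difference of 41.7 percentage points, which was 36.4 points when the longest transcript was used as the length. Over all cadherins measured, the share of Dsg3 was 1.84% in sgControl and 33.8% in sgMef2d, that of Dsg2 63.8% and 42.25%, and that of Dsc2 34.4% and 23.9%. The summed cadherin level was 3.15, 3.50 and 3.73 CPM per kilobase in sgControl and 5.27 and 5.13 in sgMef2d. The mean sum was higher by 1.74 in sgMef2d, of which Dsg3 accounted for 1.69, Dsc2 for 0.053 and Dsg2 for -0.007. On the log2 scale the Dsg3 to Dsg2 ratio of CPM differed by 4.63 and the Dsg3 to Dsc2 ratio by 4.56. An exact two-sided permutation test over the 5 libraries gave p = 0.2 for each of the 4 ratios compared (adjusted p = 0.2). That is the smallest p this form of the test can give here, so it cannot decide whether a ratio differed.

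**Figure D3:**
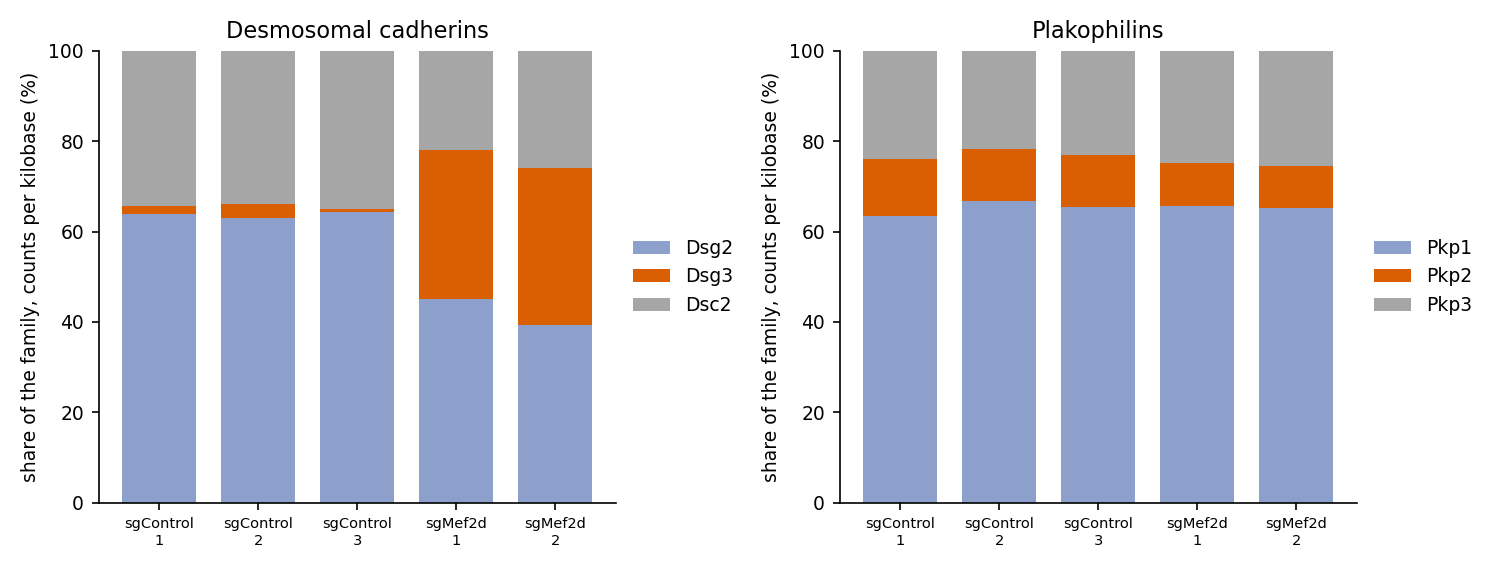
Shares (%) of the summed level per kilobase in each of the 5 libraries, for the desmosomal cadherins (left) and the plakophilins (right). Dsg3 takes 0.563% to 3.20% of the cadherin bar in sgControl and 32.8% and 34.8% in sgMef2d, whereas Pkp1 takes 63.5% to 66.7% of the plakophilin bar in every library.

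Of the armadillo plaque genes, Jup (ENSMUSG00000001552.14; chromosome 11, 100368958 to 100397763, minus strand) encodes plakoglobin, which binds the cadherin tails and also takes part in adherens junctions. It had 122, 137 and 147 CPM in sgControl and 165 and 180.3 CPM in sgMef2d. The sgMef2d libraries were above all sgControl libraries, of which replicate 1 was the lowest. The mean was 136 ± 12.6 CPM in sgControl (SD, n = 3) and 173 ± 10.75 CPM in sgMef2d (SD, n = 2), a ratio of 1.27, and the log2 fold change was 0.35 with a standard error of 0.0789 (adjusted p = 0.0201, edgeR's quasi-likelihood test). The call was lost without sgControl replicate 2 (adjusted p = 0.0548), sgMef2d replicate 1 (0.0886) or sgMef2d replicate 2 (0.297), each by the same edgeR test, and the direction was kept in all 14 alternatives.

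RefSeq promoter windows were matched for 2 of the 8 measured members, Jup and Dsp. The window of Jup is shown because Jup is the called member with a window, as the 250 bases before its start (GRCm38.p6, chr11:100397791-100398040, minus strand), with CCAAT boxes and GC boxes (GGGCGG, or CCGCCC on the other strand) in capitals.
Jup: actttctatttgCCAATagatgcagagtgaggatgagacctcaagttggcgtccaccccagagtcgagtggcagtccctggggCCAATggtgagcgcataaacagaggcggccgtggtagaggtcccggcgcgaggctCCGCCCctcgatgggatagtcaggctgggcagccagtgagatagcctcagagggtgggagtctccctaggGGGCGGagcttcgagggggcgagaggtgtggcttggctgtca
The CCAAT boxes begin 238 and 167 bases before the start and the GC boxes 112 and 42 bases before it. On both strands, 33.8% of the 32851 mouse promoter windows of this length held a CCAAT box and 32.7% a GC box. The window held no match to the MEF2 motif (2.92% of windows), to AP-1 (TGANTCA, 6.75%), to an E-box (CANNTG, 66.2%) or to the TEAD motif (GGAATG, 12.6%), which says only that these letters are not in this window. Its GC content was 62.0%, and 76.7% of windows were lower. The Dsp window held 4 GC boxes and none of the other motifs, at a GC content of 72.4%.

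Pkp3 (ENSMUSG00000054065.12; chromosome 7, 141078218 to 141090510, plus strand), a plakophilin of most epithelia that helps gather desmosomal proteins at the membrane, had 77.1, 71.2 and 77.2 CPM in sgControl and 87.45 and 94.4 CPM in sgMef2d. Again both sgMef2d libraries were above all sgControl libraries, at 90.9 ± 4.92 CPM (SD, n = 2) against 75.2 ± 3.44 CPM (SD, n = 3). The log2 fold change was 0.27 with a standard error of 0.0673 (adjusted p = 0.0304, edgeR's quasi-likelihood test). The call was lost without sgControl replicate 2 (adjusted p = 0.132), sgMef2d replicate 1 (0.134) or sgMef2d replicate 2 (0.3955), by the same edgeR test.

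Pkp1 (ENSMUSG00000026413.12; chromosome 1, 135871395 to 135919207, minus strand), a plakophilin best known from stratified epithelia, had 283, 304 and 303 CPM in sgControl and 321 and 334 CPM in sgMef2d. The sgMef2d libraries were above the others, but the log2 fold change of 0.14 (standard error 0.0587) did not pass the threshold (adjusted p = 0.168, edgeR's quasi-likelihood test). Pkp2 (ENSMUSG00000041957.15; chromosome 16, 16213318 to 16272712, plus strand), a plakophilin of simple epithelia and heart muscle, had 59.1, 56.2 and 57.4 CPM in sgControl and 50.1 and 50.4 CPM in sgMef2d. It was the sole member with both sgMef2d libraries below all sgControl libraries, at a log2 fold change of -0.20 with a standard error of 0.0659 (adjusted p = 0.0963, same edgeR test). Both genes passed when sgControl replicate 1 was left out (adjusted p = 0.0206 for Pkp1 and 0.0229 for Pkp2, edgeR), and in no other alternative at this threshold.

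Within the plakophilins, per length, Pkp1 held 65.2% ± 1.60 (SD, n = 3) of the level in sgControl and 65.4% ± 0.259 (SD, n = 2) in sgMef2d, and its libraries overlapped. The share of Pkp2 was 11.9% ± 0.496 in sgControl and 9.40% ± 0.278 in sgMef2d, and that of Pkp3 was 22.95% ± 1.17 and 25.2% ± 0.537, with no overlap between the groups for either. The log2 ratio of Pkp3 to Pkp2 CPM was 0.38 ± 0.0435 in sgControl and 0.85 ± 0.0733 in sgMef2d, a difference of 0.47, and that of Pkp1 to Pkp2 differed by 0.34. Both belong to the 4 ratios above, for which the exact permutation test gave p = 0.2.

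Dsp (ENSMUSG00000054889.10; chromosome 13, 38151294 to 38198577, plus strand) encodes desmoplakin, the link from the plaque to keratin. It had 127, 167 and 175 CPM in sgControl and 204.5 and 201 CPM in sgMef2d. The sgMef2d libraries were close to each other and above the sgControl libraries, among which replicate 1 was well below the others. The mean was 156 ± 25.9 CPM in sgControl (SD, n = 3) and 203 ± 2.33 CPM in sgMef2d (SD, n = 2). The log2 fold change of 0.38 with a standard error of 0.109 did not pass the threshold (adjusted p = 0.0579, edgeR's quasi-likelihood test), whereas DESeq2 gave an adjusted p of 0.0185. With sgControl replicate 1 left out, the difference was smaller, 0.24 on the log2 scale, and passed (adjusted p = 1.26e-06, edgeR), and with sgControl replicate 3 left out it was 0.47 and passed (adjusted p = 0.0162, edgeR).

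Ordered by level per kilobase, the members ran in sgControl from Pkp1 (59.1 CPM per kilobase) through Jup (21.1), Pkp3 (20.8), Dsp (16.2), Pkp2 (10.7), Dsg2 (2.21) and Dsc2 (1.19) to Dsg3 (0.0629). Jup and Pkp3 overlapped between libraries on this length, while the other neighbours in this order did not overlap. In sgMef2d the order was the same except that Dsg3, at 1.76, stood above Dsc2, at 1.24, and below Dsg2, at 2.20. The plaque genes were thus measured at higher levels than any cadherin gene in both groups. With the longest transcript as the length, Pkp2 stood above Dsp in sgControl. Jup, at 42.3 in sgControl and 53.9 in sgMef2d, was then apart from Pkp3, at 25.75 and 31.15. Jup kept its place in the order, and only its overlap with Pkp3 depended on the length used. The level summed over all 8 members was 131 ± 6.71 CPM per kilobase (SD, n = 3) in sgControl and 153 ± 4.61 (SD, n = 2) in sgMef2d, and the libraries did not overlap.

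**Figure D4:**
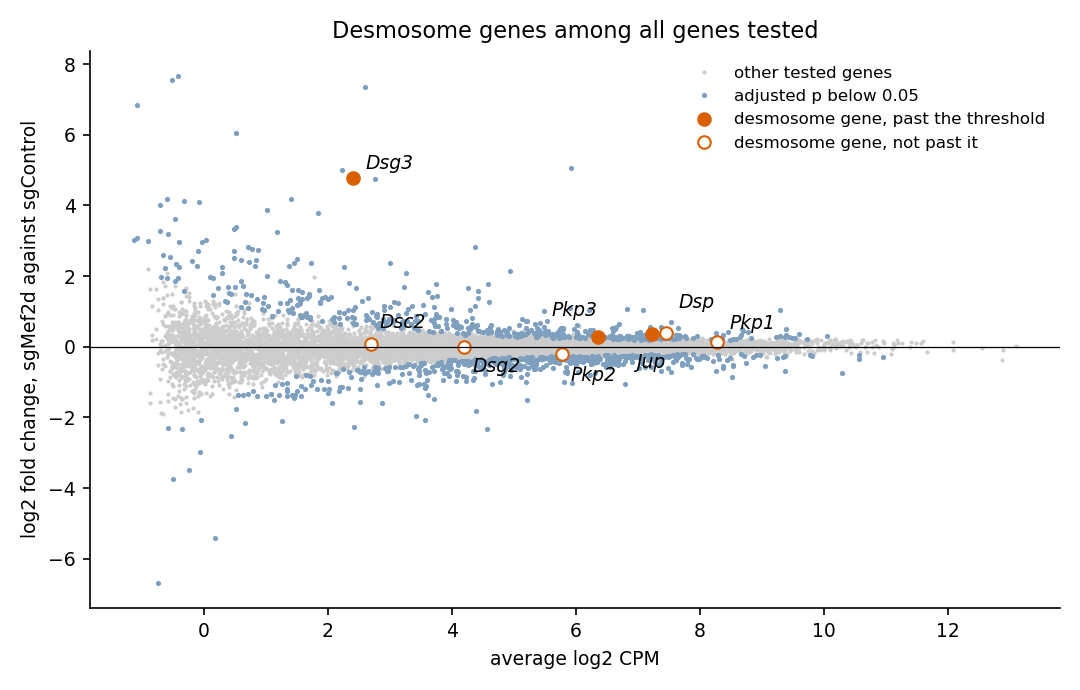
Log2 fold change (sgMef2d against sgControl) against the average log2 CPM of all 12483 genes tested, with the 8 desmosome genes named and filled where they passed the threshold. Dsg3 is at 4.79, and the other 7 members are between -0.20 and 0.38.

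The genes that desmosomes work with were read from lists of the same pathway, and their counts stand beside 7.95% of all genes past the threshold, or 29.4% without sgControl replicate 1. Of 6 measured genes among 11 other desmosomal or associated genes, 1 rose and none fell, at a median of 0.16 on the log2 scale, and 2 passed without sgControl replicate 1, a share near that of all genes. The gene that rose was Ppl, periplakin, a plakin that links junctions and the cornified envelope to keratins, at 36.9 ± 4.93 CPM in sgControl (SD, n = 3) and 50.8 ± 5.19 CPM in sgMef2d (SD, n = 2), or 0.47 on the log2 scale (adjusted p = 0.0219, edgeR's quasi-likelihood test). The call for Ppl was lost without sgControl replicate 2 or without either sgMef2d library. Of the 13 kinases, proteases and other regulators of desmosomal adhesion, 1 fell and none rose, a share close to the 7.95% over all genes, and 5 passed without sgControl replicate 1, when 29.4% of all genes did. The gene that fell was Prkca, protein kinase C alpha, a kinase known to make desmosomal adhesion weaker and dependent on calcium, at -0.22 on the log2 scale (adjusted p = 0.0457, edgeR's quasi-likelihood test). This call was lost with DESeq2, limma-voom and the length trend removed, and when any library other than sgControl replicate 1 was left out.

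Most of the intermediate filament partners changed. Of 10 measured, 7 rose and 1 fell, beside 7.95% of all genes called, and 9 passed without sgControl replicate 1, beside 29.4%. Krt5, Krt6b and Krt17 entered the test only through the sgMef2d libraries, where they were high. With at least 1 CPM required in every library, 7 were tested, of which 4 rose and 1 fell. Krt5, the basal keratin of stratified epithelia and partner of Krt14, had 0 to 3 counts in the sgControl libraries and 260 and 211 in the sgMef2d libraries (adjusted p = 3.88e-08, edgeR's quasi-likelihood test). Since its sgControl counts all lay at or under the limit of 3, its fitted log2 fold change of 7.35 is poorly determined, and it was 8.38 without sgControl replicate 1. Krt14 was at 439 ± 3.50 CPM in sgControl (SD, n = 3) and 902 ± 38.6 CPM in sgMef2d (SD, n = 2), higher by 1.04 on the log2 scale. Krt6a rose by 5.07, Krt16 by 2.09 and Krt17 by 2.29 on the log2 scale, all keratins of activated or stratified epithelium, and vimentin (Vim), the filament protein of mesenchymal cells, rose by 1.59. Krt6b had no count in any sgControl library and was at least 8.24-fold higher in sgMef2d, set against a limit of 3 counts per library. Krt18, a keratin of simple epithelia, fell by 0.26 on the log2 scale (adjusted p = 0.0207, edgeR's quasi-likelihood test), a call lost without sgControl replicate 2 or either sgMef2d library, while its partner Krt8 was at 0.0009 and did not pass. The call for Krt17 was lost without sgMef2d replicate 2, and its log2 fold change was 2.95 without sgControl replicate 3, which had 17 counts against 6 and 8 in the other sgControl libraries. Krt6a and Krt6b, like Krt14, Krt16 and Krt17, are close relatives in sequence, and reads that they may share were not examined.

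Of 15 transcription factors of epithelial junction genes, 4 rose and none fell, beside 7.95% of all genes called, at a median of 0.19 on the log2 scale, and 6 passed without sgControl replicate 1, beside 29.4%. Grhl3 was not tested when at least 1 CPM was required in every library. Those that rose were Grhl3 (2.77), a grainyhead factor of the epidermal barrier, Ehf (0.83), an ETS factor of epithelia, Trp63 (0.74), the basal epithelial p53 relative, and Klf5 (0.39), a Kruppel-like factor of proliferating epithelium. Trp63 was at 29.1 ± 2.67 CPM in sgControl (SD, n = 3) and 48.6 ± 2.05 CPM in sgMef2d (SD, n = 2; adjusted p = 4.84e-04, edgeR's quasi-likelihood test). The calls for Ehf and Klf5 were lost when either sgMef2d library was left out. The adherens junction, the neighbouring cadherin junction, held no called gene among 7 measured by edgeR, DESeq2 or limma-voom. At an unadjusted p below 0.05, 3 passed, beside 23.2% of all genes, and without sgControl replicate 1, 5 of them passed the adjusted threshold, all lower in sgMef2d, beside 29.4%. Their median log2 fold change was -0.10. Afdn, the scaffold protein afadin, had the smallest p (log2 fold change -0.17, adjusted p = 0.127, edgeR's quasi-likelihood test). Whether the desmosome genes differed from the adherens junction genes was not tested.

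**Figure D5:**
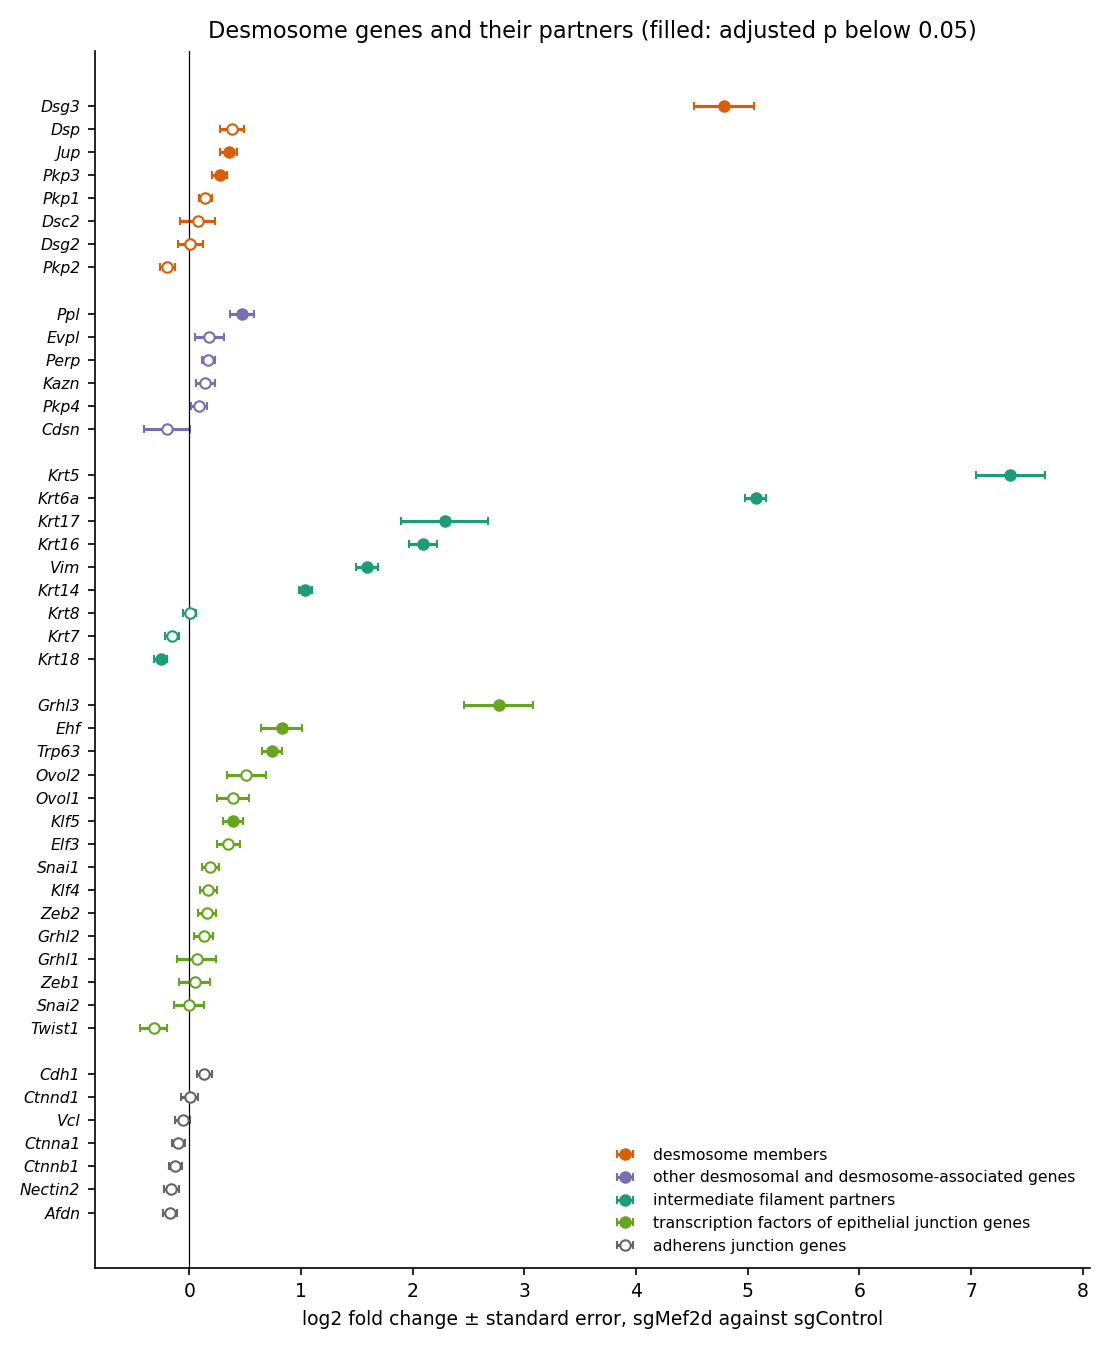
Log2 fold change (sgMef2d against sgControl) with its standard error for the measured desmosome genes, the other desmosomal genes, the intermediate filament partners, the transcription factors and the adherens junction genes, with filled symbols for genes past the threshold. The keratins reach a fitted value of 7.35 for Krt5, which had at most 3 counts in an sgControl library, and the adherens junction genes hold no filled symbol, and Krt6b, at 0 in all sgControl libraries, is not drawn.

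Markers of other cell types moved between the groups beside these results. Of 15 stratified keratinocyte markers, 10 were measured and 9 rose, beside 3.67% of all genes, with the summed levels given above, most of which came from Krt14. Beside the keratins named above, Sbsn, suprabasin, rose by 4.20 and Sprr1a, a cornified envelope gene, by 3.34 on the log2 scale, and Sprr1b was at least 7.43-fold higher against the limit of 3 counts per library. Sbsn, Sprr1a and Sprr1b, like Krt5, Krt6b and Krt17, entered the test only through the sgMef2d libraries, where they were high. With at least 1 CPM required in every library, 4 of these markers were tested and 3 rose. The measured marker that did not pass was Krt10 (log2 fold change 0.36, adjusted p = 0.287, edgeR's quasi-likelihood test). Krt6b and Sprr1b were at 0 in all sgControl libraries, and Krt1, Ivl, Lor, Flg and Krtdap were not analysed. Of 7 myoepithelial markers, 4 were measured and all 4 passed the threshold, beside 7.95% of all genes. Krt5, Krt14 and Trp63, of which Krt5 and Krt14 also stand among the keratinocyte markers, rose and Acta2, smooth muscle actin, fell by 0.81 on the log2 scale, with a summed level of between 482 and 491 CPM in sgControl and between 947 and 1005 CPM in sgMef2d. Of 8 fibroblast markers, 6 were measured, of which Col3a1 and Dcn rose and Col1a2 fell, beside 7.95% of all genes called, with sums of between 643 and 767 CPM in sgControl and between 608 and 649 CPM in sgMef2d, and without sgControl replicate 1 all 6 passed, 3 higher and 3 lower, beside 29.4% of all genes. Of the 10 mammary epithelial markers, Cldn4 rose by 0.26 and Krt18 fell, beside 7.95% of all genes called. Of these markers, 5 passed without sgControl replicate 1 (29.4% of all genes), 1 without sgControl replicate 3 (6.51%) and none without sgControl replicate 2 (4.84%). The call for Acta2 was lost without sgMef2d replicate 1, that for Dcn without sgControl replicate 2 or either sgMef2d library, and that for Cldn4 when any library other than sgControl replicate 1 was left out. Their part in the desmosome results was not tested.

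The 3 genes whose log2 CPM across the 5 libraries was closest to that of Dsg3, by Euclidean distance after centring and among 8045 genes whose average log2 CPM reached 4, were Krt6a (distance 1.20), Ppbp (2.25), a chemokine gene known from platelets, and Pitx1 (3.06), a homeobox gene. Their log2 fold changes were 5.07, 2.82 and 2.14. Dsg3 itself, at an average log2 CPM of 2.40, lies below the limit of 4, so genes at its own level were not candidates. The distance is set mostly by the difference between the groups, and 5 libraries in 2 groups allow little else to be read from it.

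Little of the members' sequence occurs in other genes. Of the 50-base words of their annotated transcripts, 0.733% in Jup, 0.116% in Dsg3 and 0.0852% in Dsg2 occurred in another gene, and none in the other 5 members. Annotated genes overlap Dsg2 (Gm16090, antisense, not analysed here), Dsp (Gm10129, on the opposite strand, 4 to 20 counts per library) and Pkp1 (Gm36938, on the same strand, 2 to 15 counts per library). The strand setting of the counting is not given in the sources used here, so reads from the stretches where Dsg2 and Dsp overlap their antisense partners may not have been told apart, nor those where Pkp1 overlaps Gm36938.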

How the data were processed

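The RNA of 3 sgControl and 2 sgMef2d EpH4 libraries was poly(A)-selected with strand-marked preparation. The authors checked reads with FASTQC and RSeQC, aligned them with STAR2 to GRCm38, and deposited unnormalized, whole-number raw counts for each gene; the submitters' processing notes also name CASAVA and Subread. The methods give GENCODE version 22, but 12934 of 12934 identifiers matched GENCODE M21, 12811 with version. A filter on low counts preceded the deposit, and the highest count of every listed gene was 11 or more. All columns of per-sample values were used, leaving 0.

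The deposited counts were tested over all genes with edgeR 4.0.16 in R 4.3.3 (TMM, default expression filter by group, bias-adjusted quasi-likelihood test, Benjamini-Hochberg, threshold 0.05), which left 12483 genes. Standard errors are the log2 fold change over the root of F. CPM values are counts over the normalized library size, and log2 CPM used a prior count of 2. Shares used merged exon lengths. Alternatives were DESeq2 1.42.0, limma-voom 3.58.1, other scalings, filters and thresholds, removal of each library's length trend, omission of each library and a block on replicate number; the unadjusted p was added after seeing the data. Scripts were tested on simulated counts.

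The members and lists were chosen with earlier results of these data known. Named were all members with their values in every library, the list genes past the threshold or with the smallest p, the 3 genes nearest to the member with the smallest p, and Mef2d. One gene of the transcription factor list is not reported here and was left out of that list's counts. Promoters were shown for called members off chromosome 18. Promoter sequences are from RefSeq (GRCm38.p6). Limits cover counting error only, since PCR copies were not marked.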

Additional observations from a re-analysis of the deposited data

How the results depend on the processing

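Over other normalizations, filters, tools and thresholds, Dsg3 passed wherever it was tested. It gave no value under a filter of at least 1 CPM in every library, where Jup and Pkp3, 2 of 7 members, passed, beside 873 of 11275 genes. The count of members past the threshold was 3 in the fit reported, beside 992 of all 12483 genes. With DESeq2 (804 of all genes), the replicate block (1254) or the length trend removed (1192), it was 4. It was 1 at an adjusted p below 0.01, 5 below 0.1 and 6 at an unadjusted p below 0.05, an alternative chosen after seeing the data. Leaving out each library gave 1 to 6 members and 234 to 3639 of all genes, against 992. All genes counted 422 below 0.01, 1584 below 0.1 and 2901 at an unadjusted p below 0.05. Where this left 1 sgMef2d library, it was assumed to vary like the sgControl libraries. Dsp passed with DESeq2 (log2 fold change 0.38), with the replicate block (0.48) and with each library's length trend removed (0.45), and without sgControl replicate 1 or 3. The causes were not tested.

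Leaving out each library gave log2 fold changes of 4.46 to 5.35 for Dsg3, 0.24 to 0.47 for Dsp, 0.28 to 0.41 for Jup, 0.11 to 0.17 for Pkp1, -0.21 to -0.18 for Pkp2, 0.21 to 0.32 for Pkp3, -0.125 to 0.11 for Dsg2 and -0.03 to 0.16 for Dsc2. The signs of Dsg2 and Dsc2 turned, at -0.06 and -0.0061 without sgControl replicate 1, at -0.125 for Dsg2 without sgMef2d replicate 1 and at -0.0291 for Dsc2 without sgMef2d replicate 2.

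With the longest transcript as length, the share difference was 36.4 points for Dsg3 among the desmogleins, against 41.7, and -3.56 for Pkp2 among the plakophilins, against -2.46. Leaving out each library gave 39.3 to 44.1 points for Dsg3, -0.625 to 0.965 for Pkp1, -2.66 to -2.175 for Pkp2 and 1.63 to 2.79 for Pkp3, and Pkp1 turned to -0.625 without sgControl replicate 1.

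The groups share replicate numbers 1 and 2, and libraries with the same number deviated from their group means with correlations of 0.0113 and -0.000916. With 2 sgMef2d libraries, whose deviations mirror each other, these values cannot tell whether equal numbers mark a shared batch. A fit with the replicate number as a block called 1254 genes and 4 members, and of the members it changed the call of Dsp only, while in the other lists Prkca and Cldn4 lost their calls under it and Elf3, Ovol2, Twist1 (lower) and Col1a1 gained one. Counting error limits Dsg3 in sgControl, at 2 to 11 counts.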
